A study of Mus musculus with 6 samples.

Results

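Osteoblasts steer bone resorption through secreted and membrane signals, and they respond to calcium-regulating hormones through their own receptors. The genes described here are the 5 that make up this signalling set: Tnfsf11 (RANKL), Tnfrsf11b (osteoprotegerin), Csf1 (M-CSF), Pth1r (the parathyroid hormone receptor) and Vdr (the vitamin D receptor). They were chosen by gene symbol, with earlier results of these data known. Of the 21686 genes of the count table, 4 are these members. Tnfsf11 is not analysed here. Tnfrsf11b, Csf1 and Vdr passed the filter on low counts in each comparison, and Pth1r did not.

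The libraries came from MC3T3-E1 Subclone 14 cells, a clonal mouse osteoblast precursor line, so that all values describe a single line in culture. Control cells (n = 2 libraries) received 100 µL PBS, the dexamethasone group (n = 2) received 10 µM of this synthetic glucocorticoid, and the dexamethasone + EPC-EVs group (n = 2) received 10 µM dexamethasone together with 100 µg of EPC-EVs, which are extracellular vesicles from cultured mouse bone marrow endothelial progenitor cells. RNA was taken after 72 hours in all groups. The sample labels were followed here; the design text of the series names fibroblasts and a shorter treatment. The study calls the libraries of a group biological replicates, and how their cultures were kept apart is not given in the sources used here, so the p-values measure the spread between these libraries.

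RANKL on osteoblast-lineage cells binds RANK on osteoclast precursors and drives their differentiation, osteoprotegerin is a secreted decoy that binds RANKL, and M-CSF binds its receptor on the same precursors and keeps them alive and dividing. Parathyroid hormone and vitamin D act on osteoblasts through a G protein-coupled receptor and a nuclear receptor, and both hormones raise RANKL and change osteoprotegerin in bone cells. Glucocorticoids are known to lower osteoprotegerin in osteoblasts. The comparisons below therefore ask what dexamethasone did to the members, what adding EPC-EVs to dexamethasone did, and how the combination stood against control.

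Csf1 and Vdr are shown by the sequence around a start site. They were picked because Csf1 was called higher with EPC-EVs against dexamethasone and Vdr was not called in any comparison. No such sequence of Tnfrsf11b was at hand. The Csf1 window spans the 5′ end of the annotated gene, at 107760469. The Vdr window lies inside the annotated gene, which has 6 annotated transcripts and its 5′ end at 97910630. Both windows are 300 bases long, from RefSeq for GRCm38.p6. They are written 5′ to 3′ on the minus strand of the genome, which is the strand of each gene. Capitals mark the letters found for the motifs searched.
Csf1 (chr3:107760420-107760719): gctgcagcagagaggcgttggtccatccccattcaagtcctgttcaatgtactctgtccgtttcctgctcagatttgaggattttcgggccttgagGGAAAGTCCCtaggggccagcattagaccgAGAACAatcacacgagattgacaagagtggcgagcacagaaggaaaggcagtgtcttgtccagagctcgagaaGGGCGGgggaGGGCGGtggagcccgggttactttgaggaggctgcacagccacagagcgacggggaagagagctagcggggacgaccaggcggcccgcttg
Vdr (chr15:97908247-97908546): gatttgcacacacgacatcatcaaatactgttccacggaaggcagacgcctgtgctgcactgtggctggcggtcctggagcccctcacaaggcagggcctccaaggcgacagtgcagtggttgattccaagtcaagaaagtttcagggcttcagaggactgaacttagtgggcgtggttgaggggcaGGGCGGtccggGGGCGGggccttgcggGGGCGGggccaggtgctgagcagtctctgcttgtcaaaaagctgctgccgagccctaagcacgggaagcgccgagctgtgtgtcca
The motifs searched on both strands were a TATA box (TATAAA), a glucocorticoid receptor hexamer (AGAACA), AP-1 (TGANTCA), a cAMP response element (TGACGTCA), a nuclear receptor hexamer (AGGTCA), a GC box (GGGCGG) and the NF-kB motif by its name, and no match overlapped another. The Csf1 window held a match to NF-kB at -154 from the start site on the opposite strand, a glucocorticoid receptor hexamer at -124 and GC boxes at -51 and -41. The Vdr window held GC boxes at -63, -52 and -36. The windows of Pth1r, not shown, held GC boxes and a glucocorticoid receptor hexamer at -65. Of 32851 promoters of this length, 4.51% held the NF-kB motif, 19.0% the glucocorticoid receptor hexamer and 35.7% a GC box. A match describes the letters and not a bound site. The GC content of the windows was 58.7% for Csf1 and 61.3% for Vdr.

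Total counts were between 5146760 and 13182014 per library, and the dexamethasone + EPC-EVs libraries, with 12864009 and 13182014, were the deepest. Replicates of each group differed beyond sampling noise (chi-square over its degrees of freedom 7.17 to 20.1). The EPC-EVs libraries also stood apart in composition. Mitochondrially encoded genes took 0.465% and 0.727% of their counts against 5.55% to 8.62% in the other 4 libraries, and Gm26917 was their highest gene. No label gives a batch, so a batch and the EPC-EVs treatment cannot be told apart. The osteoblast marker list was detected, with summed levels of 16100 to 17826 CPM (counts relative to the TMM-scaled library total) in control and dexamethasone and 29378 and 23418 CPM in EPC-EVs. Spp1 and Col1a2 led it and moved apart against dexamethasone: Col1a1 (1.51), Col1a2 (1.89) and Sparc (1.25) were called higher and Spp1 (-1.06) and Phex (-1.92) lower, in log2 fold changes. The enzyme alkaline phosphatase (Alpl) and osteocalcin (Bglap) stood at 0 to 17 and 0 to 83 counts per library. In such RNA of whole cultures, fewer cells of a type and less RNA per cell cannot be told apart.

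Per length of gene, the members kept the same order in all 6 libraries. Csf1 was the highest, at 118 to 187 FPKM, Tnfrsf11b followed at 11.8 to 40.2 FPKM, Vdr at 2.95 to 5.43 FPKM and Pth1r at 0 to 0.446 FPKM, so that neighbours in this order never overlapped. The FPKM values are those the authors deposited.

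**Figure D1:**
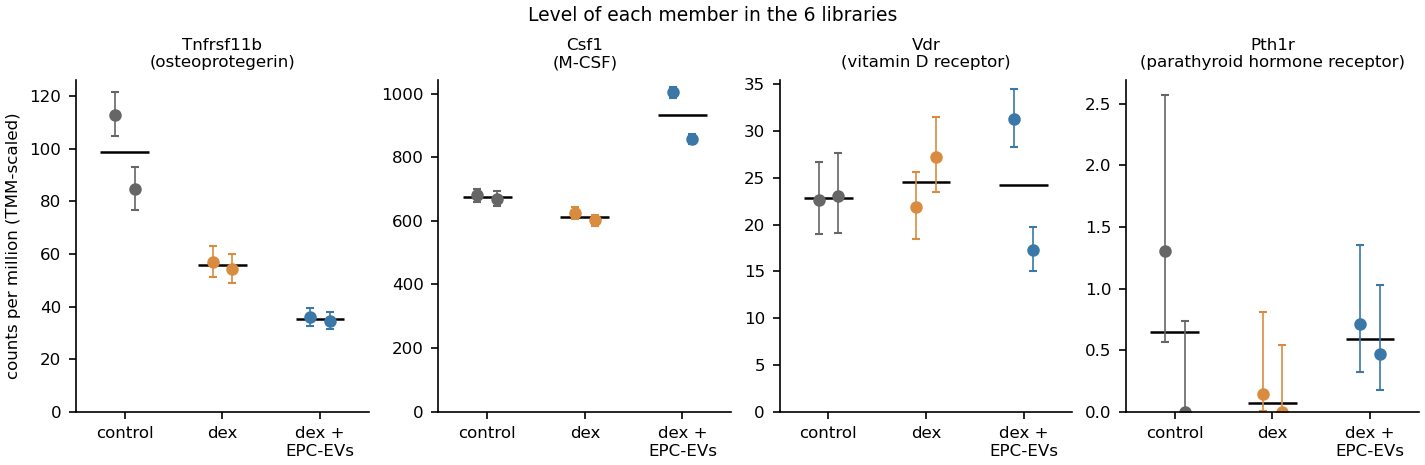
Level of each member in every library, in TMM-scaled CPM on linear axes from 0, for control, dexamethasone (dex) and dexamethasone + EPC-EVs. Points are libraries, thin bars the exact 95% Poisson interval of the count and horizontal lines the group means. Tnfrsf11b steps down from 113 and 84.6 CPM in control to 36.0 and 34.5 CPM with EPC-EVs, and the groups do not overlap for Tnfrsf11b and Csf1 but overlap for Vdr.

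Of the 3 members tested, osteoprotegerin had the largest fold change in each comparison with counts as deposited and all 4 libraries. Tnfrsf11b (ENSMUSG00000063727.3, chr15:54250619-54278484 in GRCm38, minus strand, 1 annotated transcript, overlapping no other gene) stood at 113 and 84.6 CPM in control, 56.9 and 54.3 CPM in dexamethasone and 36.0 and 34.5 CPM in dexamethasone + EPC-EVs. No group overlapped another. In counts these were 694 and 425, 391 and 369, and 455 and 439, so that counting error was small beside the differences between groups. In dexamethasone, Tnfrsf11b was 1.78-fold lower than in control (log2 fold change -0.84, SE 0.210, 95% interval -1.30 to -0.37), which was not called by edgeR's quasi-likelihood test (adjusted p 0.279). In dexamethasone + EPC-EVs it was 1.63-fold lower than in dexamethasone (log2 fold change -0.70, SE 0.188, -1.12 to -0.29, adjusted p 0.0113 by the same edgeR test) and 2.90-fold lower than in control (log2 fold change -1.54, SE 0.232, -2.06 to -1.01, adjusted p 0.00174 by edgeR).

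When 1 library is left out, its group keeps a lone sample, and the spread of the fit then comes from the other pair alone. Against dexamethasone, the log2 fold change of Tnfrsf11b was then -0.65 without dexamethasone replicate 1 and -0.74 when replicate 2 was left out, about as large as with both, and its adjusted p from edgeR was 0.0697 and 0.0529, in a range of 0.00795 to 0.304 over 15 alternatives. The highest came with the trend on GC content and length removed, described below, where the log2 fold change was -0.27 and the call was lost. Against control, Tnfrsf11b was called with each library left out in turn and under the other alternatives, with log2 fold changes from -1.71 to -0.99. In dexamethasone against control it was not called, but DESeq2 gave an adjusted p of 0.0461, and edgeR, with the spread taken from the dexamethasone pair, gave 0.0378 without control replicate 1 and 0.00151 without control replicate 2. Those fits called 2200 and 113 of all genes (16.0% and 0.826%), and 11 of 15 alternatives left it uncalled.

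M-CSF was called higher when EPC-EVs were added to dexamethasone, with counts as deposited. With the trend on GC content and length removed, as described below, this call was lost (log2 fold change 0.15, adjusted p 0.350 by edgeR). Csf1 (ENSMUSG00000014599.10, chr3:107741048-107760469, minus strand, overlapping no other gene) stood at 681 and 670 CPM in control, 624 and 601 CPM in dexamethasone and 1004 and 858 CPM in dexamethasone + EPC-EVs. Both EPC-EVs libraries were above the other 4, and both dexamethasone libraries were below both control libraries. Against dexamethasone, Csf1 was 1.47-fold higher with EPC-EVs (log2 fold change 0.56, SE 0.120, 0.30 to 0.82, adjusted p 0.00328 by edgeR's quasi-likelihood test). Without dexamethasone replicate 2, with the spread taken from the EPC-EVs pair, its log2 fold change was 0.53 and its adjusted p from edgeR 0.0751, in a range of 1.01e-06 to 0.350 over 15 alternatives. Against control the difference was 0.42 (log2, SE 0.172, 0.02 to 0.81), which missed the threshold after adjustment (adjusted p 0.0910 by edgeR). With all 6 libraries in one fit, which called 41.7% of all genes, Csf1 was called there too (adjusted p 0.0277 by edgeR, in a range of 0.0277 to 0.501 over 15 alternatives). Csf1 against control turned to -0.29 with the trend removed (adjusted p 0.229 by edgeR). Dexamethasone alone gave a log2 fold change of -0.15 (SE 0.135, -0.44 to 0.15, adjusted p 0.728 by edgeR), which was not called.

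The hormone receptors gave no call. Vdr (ENSMUSG00000022479.15, chr15:97854425-97910630, minus strand, overlapping no other gene) stood at 22.6 and 23.1 CPM in control, 21.8 and 27.2 CPM in dexamethasone and 31.3 and 17.3 CPM in dexamethasone + EPC-EVs. The EPC-EVs libraries were the highest and the lowest of all 6, so that the groups overlapped. The log2 fold changes were 0.09 for dexamethasone against control (-0.57 to 0.76, adjusted p 0.941 by edgeR), -0.06 for EPC-EVs against dexamethasone (-0.72 to 0.60, adjusted p 0.890) and 0.04 for EPC-EVs against control (-0.77 to 0.84, adjusted p 0.945). The intervals reach past 0.5 in both directions, so that differences of that size were not detectable at this depth and spread. Pth1r (ENSMUSG00000032492.14, chr9:110722085-110747145, minus strand) overlaps Myl3 on the plus strand. It had 8 and 0 counts in control, 1 and 0 in dexamethasone and 9 and 6 in dexamethasone + EPC-EVs, or at most 1.30 CPM. Its 0 counts allow up to 0.597 CPM in control replicate 2 and 0.442 CPM in dexamethasone replicate 2, for counting error only (the limit of 3 counts), where the two-sided 95% Poisson bars of the plot of levels reach 0.734 and 0.543 CPM, and no comparison of Pth1r was made.

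**Figure D2:**
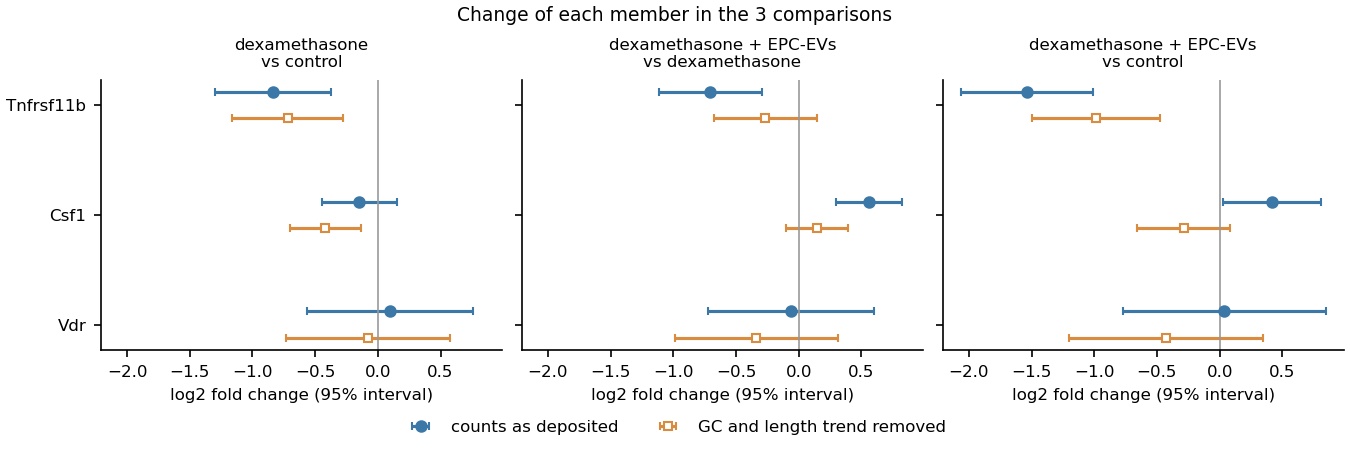
Log2 fold change of Tnfrsf11b, Csf1 and Vdr in the 3 comparisons, with the 95% interval of edgeR's fit, once with counts as deposited and once with the trend on GC content and length removed. The interval of Tnfrsf11b in EPC-EVs against control lies below 0 in both, and those of Tnfrsf11b and Csf1 in EPC-EVs against dexamethasone reach 0 once the trend is removed.

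The share of members called was read against all genes. In dexamethasone against control, 0 of the 3 tested members were called, where 0.0544% of all tested genes were. By an unadjusted p under 0.05, 1 of 3 (Tnfrsf11b) passed against 10.9% of all genes. DESeq2, run without the filter on low counts, called 1 against 0.654% of 19711 genes, a wider background than the 12879 genes of edgeR. In EPC-EVs against dexamethasone, 2 of 3 were called against a background of 39.8%, with Csf1 higher (20.9% of all genes) and Tnfrsf11b lower (18.9%). In EPC-EVs against control 1 of 3 was called against 36.4%, again Tnfrsf11b lower (17.2% of all genes, where 19.1% were called higher). Of genes whose libraries do not overlap and are lower, the background was 21.6% in dexamethasone against control, 35.8% in EPC-EVs against dexamethasone and 35.4% in EPC-EVs against control, and Tnfrsf11b was such a gene in all 3 and Csf1 in dexamethasone against control. Of genes that were higher without overlap, as Csf1 was in both EPC-EVs comparisons, it was 36.6% and 37.6%. Calls of this kind are common in the EPC-EVs comparisons, and 3 genes are too few for their share to be read as particular to the members. The study's methods instead used a log2 fold change beyond 1.5 together with p under 0.05 before adjustment. By that threshold 0 of 3 passed in dexamethasone against control (1.41% of all genes) and in EPC-EVs against dexamethasone (14.2%), and 1, Tnfrsf11b, in EPC-EVs against control (20.7%). These 3 comparisons share their libraries, so they are not independent of each other.

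The direction of the changes went with the GC content of the genes. Genes in the lowest quartile of GC content (28.3% to 44.1%) moved by a median log2 fold change of -0.65 in EPC-EVs against dexamethasone, and those in the highest quartile (53.9% to 78.3%) one of 0.65. Tnfrsf11b, at 42.9% GC, lies in the lowest quartile, of which 39.3% were called lower. Csf1, at 54.4%, lies in the highest, of which 43.4% were called higher. Vdr, at 52.4%, lies in the third quartile, with a median of 0.22. In EPC-EVs against control, the medians ran from -0.85 in the lowest quartile to 1.004 in the highest, and in dexamethasone against control from -0.22 to 0.34. The cause of this relation was not tested.

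**Figure D3:**
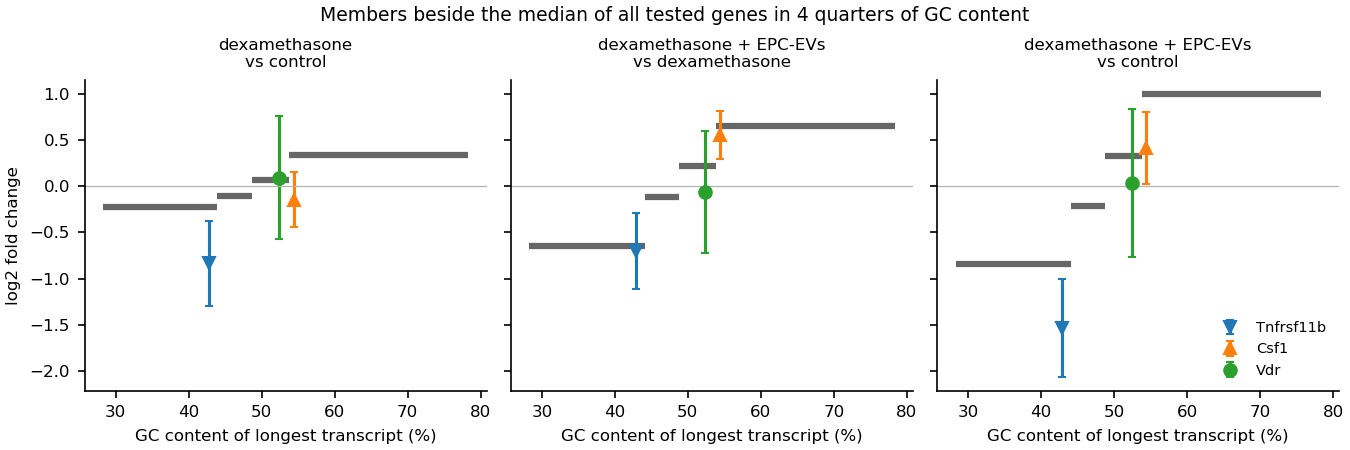
Median log2 fold change of all tested genes by quartile of GC content, in the 3 comparisons, with Tnfrsf11b, Csf1 and Vdr marked at their own GC content, with 95% intervals. The medians rise from the lowest quartile to the highest in each comparison, from -0.65 to 0.65 in EPC-EVs against dexamethasone.

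When the GC and length trend of each library was removed, which was chosen once the data had been seen, both calls of the EPC-EVs against dexamethasone comparison were lost. Tnfrsf11b gave a log2 fold change of -0.27 (-0.68 to 0.14, adjusted p 0.304 by edgeR) and Csf1 one of 0.15 (-0.10 to 0.39, adjusted p 0.350 by edgeR), against a background of 31.7% of all genes called. In EPC-EVs against control, Tnfrsf11b was still called, at -0.99 (-1.50 to -0.48, adjusted p 0.0119 by edgeR), where 26.5% of all genes were called, while Csf1 turned to -0.29 (adjusted p 0.229). In dexamethasone against control neither was called: Tnfrsf11b stood at -0.72 (adjusted p 0.223 by edgeR) and Csf1 at -0.42 (-0.70 to -0.13, adjusted p 0.298 by edgeR), in place of -0.15. Removing the trend also removes any true change that goes with GC content, and these settings cannot tell which value is the closer one.

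The balance of M-CSF to osteoprotegerin, a ratio chosen after the values were seen, was taken within each library, where the scaling of the library cancels. The ratio of Csf1 to Tnfrsf11b FPKM was 3.21 and 4.22 in control, 5.85 and 5.90 in dexamethasone and 14.9 and 13.3 in dexamethasone + EPC-EVs. The groups did not overlap, with the lowest values in control and the highest with EPC-EVs. The ratio was 1.60-fold higher in dexamethasone than in control (log2 difference 0.67), 2.39-fold higher with EPC-EVs than in dexamethasone (1.26) and 3.82-fold higher with EPC-EVs than in control (1.93). Each of these 3 comparisons gave a two-sided exact permutation p of 0.333, the smallest that 6 splits of 2 against 2 libraries allow, and the same value after Benjamini-Hochberg adjustment over the 3. The genes differ in GC content, and with the trend removed the log2 differences were 0.30, 0.41 and 0.70. The RANKL to osteoprotegerin ratio is not analysed here.

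**Figure D4:**
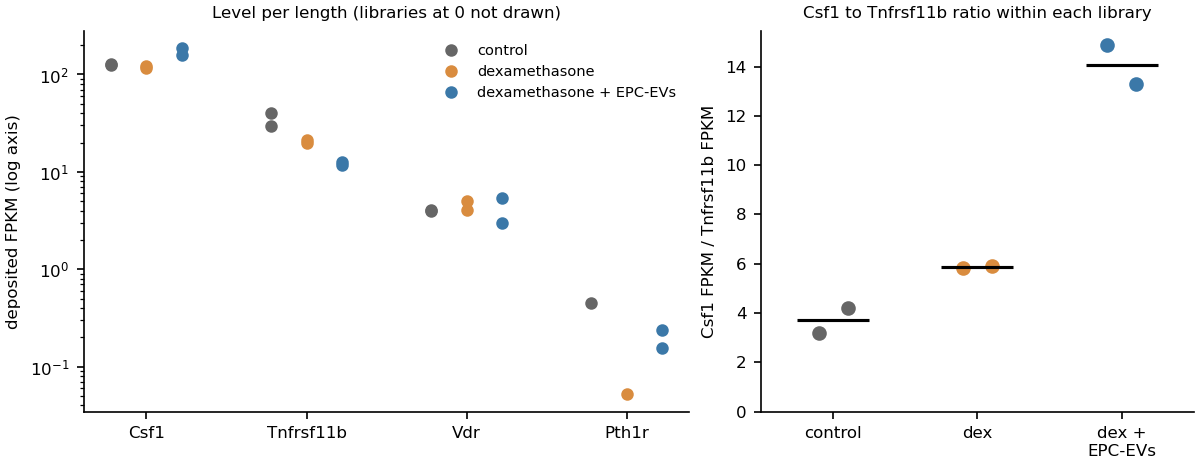
FPKM of the members on a log scale in the 6 libraries, and beside it the ratio of Csf1 to Tnfrsf11b FPKM per library. Csf1 stays above Tnfrsf11b, Vdr and Pth1r throughout, and the ratio goes from 3.21 and 4.22 in control to 14.9 and 13.3 with EPC-EVs.

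The genes with a pattern most like each member over the 6 libraries were found among 9223 genes by the root mean square distance of their log2 levels, each centred on its own mean. Nearest to Tnfrsf11b were Jun (0.114), Myef2 (0.117) and Arpp19 (0.148). Jun, a subunit of the AP-1 transcription factor, stood at 780 and 629 CPM in control, 499 and 448 CPM in dexamethasone and 263 and 271 CPM with EPC-EVs. Nearest to Csf1 were Tubgcp3 (0.0584), Rbbp7 (0.0608) and Vcl (0.0624), and nearest to Vdr were Carmil1 (0.0695), Racgap1 (0.0913) and Lmcd1 (0.0955). These distances describe 6 libraries and were not tested.

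The other genes of the pathways were taken as 5 lists, chosen with earlier results of these data known. Of their 74 tested genes, 0 were called in dexamethasone against control by edgeR (0.0544% of all genes). At an unadjusted p under 0.05 there were 14 (10.9% of all genes). DESeq2, run without the filter on low counts, called 3 (0.654% of 19711 genes). With EPC-EVs against dexamethasone, 15 were called higher and 15 lower (40.5%, where 39.8% of all genes were called), and against control 16 were higher and 15 lower (41.9%, where 36.4% of all genes were). The share called was near the background in both, so these counts describe the lists and do not single them out.

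**Figure D5:**
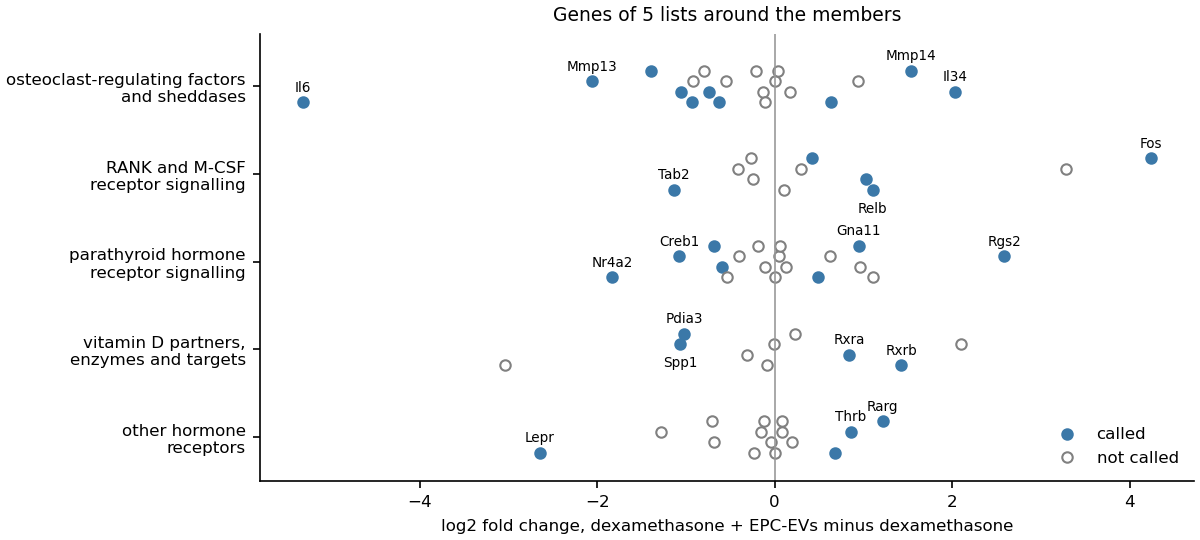
Log2 fold changes of the tested genes of the 5 pathway lists in dexamethasone + EPC-EVs against dexamethasone, one row per list, with called genes filled, uncalled genes open and the named genes labelled. The lists hold called genes in both directions, 15 higher and 15 lower against dexamethasone.

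Among the factors and proteases by which osteoblasts act on osteoclasts, 20 genes were tested. With EPC-EVs against dexamethasone, 3 were called higher and 7 lower (20.9% and 18.9% of all genes). Once the trend was removed, 3 were higher and 5 lower (31.7% of all genes called). Of these, 5 were called in the same direction before its removal. Before the removal, the median log2 fold change of the 20 genes was -0.38 (0.01 over all genes). Il34, a second ligand of the M-CSF receptor, stood at 8.31 and 9.75 CPM in control, 4.22 and 5.01 CPM in dexamethasone and 20.2 and 18.8 CPM with EPC-EVs, a log2 fold change of 2.03 (SE 0.351, adjusted p 0.000833 by edgeR). Mmp14, a membrane-bound matrix protease, was higher by 1.54 on the log2 scale (adjusted p 7.03e-06 by edgeR) and reached 958 and 1088 CPM. Il6, a cytokine that promotes resorption, fell from 109 and 106 counts in dexamethasone to 10 and 0 counts (log2 fold change -5.32, adjusted p 0.000306 by edgeR). The collagenase Mmp13 had a log2 fold change of -2.06 (adjusted p 0.0141 by edgeR), and this call was lost with the trend removed (-1.49, adjusted p 0.0688), with the replicate block and without dexamethasone replicate 2. Against control, 4 were called higher and 8 lower of 20 (36.4% of all genes were called). Once the trend was removed, 1 was higher and 6 lower (26.5% of all genes). Of these, 6 were called in the same direction before its removal. Ephb4, the receptor of ephrin-B2, was higher by 1.33 on the log2 scale (adjusted p 0.00396 by edgeR), and by 0.22 with the trend removed, where it was not called.

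Of the genes of RANK and M-CSF receptor signalling, 11 were tested. With EPC-EVs against dexamethasone, 4 were called higher and 1 lower (20.9% and 18.9% of all genes). Once the trend was removed, 2 were higher and 3 lower (31.7% of all genes called). Of these, 3 were called in the same direction before its removal. Fos, a subunit of AP-1 needed for osteoclast formation, went from 7.57 and 10.0 CPM in dexamethasone to 164 and 180 CPM (log2 fold change 4.25, adjusted p 1.38e-07 by edgeR). Relb, of the noncanonical NF-kB route, had a log2 fold change of 1.11 (adjusted p 0.00826 by edgeR), and Tab2, an adaptor of the TAK1 kinase, one of -1.14 (adjusted p 0.000115 by edgeR). The call of Relb was lost with the trend removed and without dexamethasone replicate 2. Csf1r, the M-CSF receptor, had 12 and 0 counts in control, 20 and 8 in dexamethasone and 56 and 471 with EPC-EVs. Its call against control (log2 fold change 4.25, adjusted p 0.0259 by edgeR) rested on few libraries: it was lost without EPC-EVs replicate 2, without either control library and in 3 further alternatives.

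The parathyroid hormone receptor itself was barely counted, but other genes of its signalling were. Of 18 tested, 3 were called higher and 4 lower with EPC-EVs against dexamethasone (20.9% and 18.9% of all genes). Once the trend was removed, 1 was higher and 5 lower (31.7% of all genes called). Of these, 4 were called in the same direction before its removal. Rgs2, a regulator of G protein signalling, went from 10.3 and 5.15 CPM to 48.9 and 47.3 CPM (log2 fold change 2.59, adjusted p 7.01e-05 by edgeR). Nr4a2, a nuclear receptor induced by cAMP, had a log2 fold change of -1.83 (adjusted p 0.00178 by edgeR). Gna11, a G protein subunit, had a log2 fold change of 0.95 (adjusted p 0.000923 by edgeR) and Creb1, the cAMP-response factor, one of -1.08 (adjusted p 0.000892 by edgeR). Both of these calls were lost with the trend removed. Against control, Arrb1, an arrestin, had a log2 fold change of 1.41 and Crem, a cAMP-response factor, one of -1.38, with adjusted p of 0.0454 and 0.0424 by edgeR. The call of Crem was lost in 7 of 15 alternatives and that of Arrb1 in 3.

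Of the partners, enzymes and targets of the vitamin D receptor, 2 of 10 tested genes were called higher and 2 lower with EPC-EVs against dexamethasone, where 39.8% of all genes were called, and 0 higher and 2 lower with the trend removed, where 31.7% were. The retinoid X receptors with which Vdr pairs were higher, Rxrb by 1.43 on the log2 scale (adjusted p 0.00115 by edgeR) and Rxra by 0.84 (adjusted p 0.000589 by edgeR), and both calls were lost with the trend removed. Spp1, osteopontin, fell from 10693 and 10568 CPM to 6104 and 4405 CPM (log2 fold change -1.06, adjusted p 0.000155 by edgeR). Pdia3, a disulfide isomerase linked to rapid vitamin D responses, had a log2 fold change of -1.02 (adjusted p 6.64e-05 by edgeR). With the trend removed both were still called in that comparison, Spp1 at -0.50 and Pdia3 at -0.92, while Spp1 against control (-1.09) was not (-0.41, adjusted p 0.144 by edgeR). Rxrb and Rxra were called against control at 2.46 and 1.51. Both stayed called there with the trend removed, at 0.95 and 0.57 (adjusted p 0.0494 and 0.0437 by edgeR). Cyp24a1, the enzyme that degrades active vitamin D, had 1 and 4 counts in dexamethasone and 0 in the other 4 libraries.

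Among other hormone receptors, 3 of 15 tested genes were called higher and 1 lower with EPC-EVs against dexamethasone (39.8% of all genes called). Once the trend was removed, 4 were higher and 1 lower, where 31.7% of all genes were called. Of these, 2 were called in the same direction before its removal. Rarg, a retinoic acid receptor, was higher by 1.22 on the log2 scale (adjusted p 0.000150 by edgeR) and Thrb, a thyroid hormone receptor, by 0.86 (adjusted p 0.0128 by edgeR), while Lepr, the leptin receptor, had a log2 fold change of -2.65 (adjusted p 0.0362 by edgeR) on at most 33 counts per library. With the trend removed Rarg stood at 0.46, still called, and against control it went from 1.33 to 0.13 and lost its call. The call of Lepr was lost in 8 of 15 alternatives and that of Thrb in 3, among them without dexamethasone replicate 1 and without EPC-EVs replicate 1. Against control, the glucocorticoid receptor Nr3c1 gave -0.62 (adjusted p 0.0455 by edgeR), a call lost in 7 alternatives, with 0.10 once the trend was removed. Rara gave 0.83 (adjusted p 0.0354 by edgeR) and -0.42 with the trend removed, a call lost in 4 of 15 alternatives.

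The targets of the glucocorticoid receptor were read as a check of the dexamethasone label. Of 9 tested, 0 were called in dexamethasone against control (0.0544% of all genes), with a median of -0.10 on the log2 scale. Sgk1 and Dusp1, the highest of them, stood at 232 and 146 CPM and 95.3 and 93.8 CPM in control and at 160 and 159 CPM and 65.9 and 73.8 CPM in dexamethasone. Both were lower in mean in dexamethasone, and neither was called. In the EPC-EVs libraries, which also received dexamethasone, 3 were called higher than control and 2 lower (Tsc22d3 at 2.31, Dusp1 at 1.77 and Fkbp5 at 1.01 against Errfi1 at -0.85 and Glul at -0.61, log2 fold changes), where 36.4% of all genes were called. Against dexamethasone 4 were called higher and 0 lower, where 39.8% of all genes were called. The EPC-EVs replicates lay apart, with Tsc22d3 at 94.3 and 217 CPM and Dusp1 at 264 and 405 CPM. Alternative settings, the removal of the trend among them, are not given for these targets.

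Markers of other cell types moved with EPC-EVs in part. Of 10 macrophage markers, 7 were analysed here, Ptprc, Itgam and Tyrobp being the others, and their summed level was 21.1 to 25.6 CPM in control, 20.8 to 27.2 CPM in dexamethasone and 44.4 and 88.8 CPM with EPC-EVs. Csf1r made up 37.0 of the 88.8 CPM. Cd14 and Lyz2 had the highest means. Cd14 stood at 3.06 and 7.21 CPM in dexamethasone and 24.2 and 33.4 CPM with EPC-EVs (log2 fold change 2.44, adjusted p 0.000537 by edgeR), the 1 of 5 tested markers called in that comparison (39.8% of all genes). Cd68, not called, stood at 4.66 and 3.39 CPM in dexamethasone and 2.85 and 1.65 CPM with EPC-EVs, and Lyz2 and Fcer1g gave log2 fold changes of 0.18 and 0.06. Adgre1 and Spi1 had at most 1 and 6 counts. Of 10 osteoclast markers, 6 were analysed here, not Tnfrsf11a, Acp5, Calcr or Dcstamp. They summed to 97.7 to 140 CPM in control and dexamethasone and to 152 and 121 CPM with EPC-EVs, led by Itgb3 and Ctsk. Against dexamethasone, Ctsk was called higher (0.63 on the log2 scale, adjusted p 0.0471 by edgeR) and Mmp9 lower (-1.94, adjusted p 0.000192 by edgeR). Itgb3 was called higher against control (1.36, adjusted p 0.00401 by edgeR) and Mmp9 lower (-1.73, adjusted p 0.00614 by edgeR). Of 3 tested, 1 was called higher and 1 lower in both EPC-EVs comparisons, where 39.8% and 36.4% of all genes were called. The endothelial list, with Kdr and Tie1 not analysed here, summed to 363 to 419 CPM in control and dexamethasone and to 292 and 244 CPM with EPC-EVs. Cd34 made up nearly all of it, while Cdh5 had 1 count in 1 library. The part of these markers in the values of the members was not tested.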

How the data were processed

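RNA-seq libraries of MC3T3-E1 Subclone 14 cells were analysed. After quality trimming, the authors aligned the reads to GRCm38 with HISAT2, counted reads per gene with HTSeq (version 0.6.1 in the submitters' processing notes) and deposited these counts without normalization. The deposited FPKM are the authors' counts per gene length and library total. Whether the counting used strand is not given in the sources used here. A deposited transcript table of chromosome 1 was not used.

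Counts were fitted on all genes of the 4 libraries compared with edgeR 4.0.16 in R 4.3.3 (TMM, filterByExpr, robust quasi-likelihood test). Benjamini-Hochberg adjustment ran over every gene tested, and genes under 0.05 were called. Scripts were tested on simulated data. Alternatives used DESeq2 1.42.0, limma 3.58.1, other normalizations and filters, a replicate block and each library left out. Removal of a GC and length trend (loess, span 0.4) was added after seeing the data. Intervals of levels are exact Poisson, and those and the limits from 3 counts cover counting error only. Annotation was GENCODE vM21, which matched 21646 genes. Members and lists were chosen with earlier results of these data known. Named genes are the members, up to 2 called genes with the largest rise and fall per pathway list and comparison, the 2 highest genes of each marker list and the 3 nearest genes of each member. Other named markers, glucocorticoid targets and Cyp24a1 were chosen after their values were seen.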

Additional observations from a re-analysis of the deposited data

How the results depend on the processing

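Of 135 alternative values of the members' fold changes, 116 kept their direction and their side of the threshold. Members called in dexamethasone against control went from 0 to 1 with no filter and with DESeq2, and to between 0 and 1 with a library left out; in EPC-EVs against dexamethasone from 2 to 0 with the GC and length trend removed or the study's threshold, and to between 0 and 2 with a library left out; in EPC-EVs against control from 1 to 2 with all 6 libraries in one fit, where Csf1 was called (log2 fold change 0.43, adjusted p 0.0277 by edgeR). Pathway genes called in dexamethasone against control went from 0 to 5 with no filter, 3 with DESeq2, 1 with the replicate block and between 0 and 18 with a library left out, the most without control replicate 1; all genes called went from 7 to 248, 129, 43 and between 9 and 2200, to 18 with the trend removed, 1 without mitochondrial genes and 0 with limma. In EPC-EVs against dexamethasone, 3250 of all genes were called without dexamethasone replicate 2, against 5397. The study's threshold passed 10 pathway genes against dexamethasone, where 30 were called, and 12 against control, where 31 were. Vdr changed sign in dexamethasone against control with the trend removed (-0.080) and between -0.067 and 0.25 with a library left out, in EPC-EVs against dexamethasone between -0.54 and 0.33, and in EPC-EVs against control with upper quartile scaling (-0.019), the replicate block (-0.019), the trend removed (-0.43) and between -0.44 and 0.42 with a library left out. The log2 difference of the Csf1 to Tnfrsf11b ratio went from 0.67, 1.26 and 1.93 to 0.30, 0.41 and 0.70 with the trend removed. Csf1 changed sign in EPC-EVs against control with the trend removed (-0.29). The causes were not tested. The replicate numbers were not shown to pair the libraries: the differences between replicates 1 and 2 correlated at 0.140, 0.0370 and -0.00218 between groups over 9223 genes. The block changed no call of a member (Tnfrsf11b in dexamethasone against control, adjusted p 0.0889 by edgeR). The planned share of Tnfsf11 was not run.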
